A study of Rattus norvegicus with 57 samples.

Results

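In the rat kidney after a single dose of cisplatin, 7 genes that take up, store, export or scavenge iron were followed over 26 days. Probe sets were assigned to the set by gene symbol and not by a measured value, although the genes were picked with earlier results of these data known. They are the transferrin gene Tf, the transferrin receptor gene Tfrc, the divalent metal transporter gene Slc11a2, the ferritin heavy chain gene Fth1, the ferroportin gene Slc40a1, the ceruloplasmin gene Cp and the haptoglobin gene Hp. Of these, 5 (Tfrc, Slc11a2, Slc40a1, Cp and Hp) were among the 11683 genes tested. Fth1 and Tf had only probe sets that the array's annotation also assigns to another gene, and they are described apart. The animals were male Han Wistar rats, 8 weeks old at dosing, given 3 or 1 mg/kg cisplatin once into the peritoneal cavity in saline, or saline alone in the control groups. Kidney tissue enriched in cortex was taken on days 3, 5, 8 and 26. Each rat had its own Affymetrix Rat 230 2.0 array, and there were 57: 5 in each group, except 4 for the controls of day 26 and 3 for 1 mg/kg on day 5. The labels call the animals of a group biological replicates.

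Iron circulates bound to transferrin, and cells take up the complex through the transferrin receptor. Inside the cell the metal transporter encoded by Slc11a2 moves ferrous iron out of the endosome, ferritin stores what is not used, and ferroportin is the known route of export of iron from animal cells. Ceruloplasmin is a copper oxidase that converts exported iron to the ferric form that transferrin binds, and haptoglobin captures free haemoglobin. The kidney filters and reabsorbs transferrin and other iron carriers in the proximal tubule, and cisplatin is known to injure that segment.

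Signals are MAS5 values on a linear scale, in arbitrary units that allow a gene to be compared between animals but not with another gene. Array medians ran from 20.3 to 26.1, and arrays of the same group correlated at 0.973 to 0.993 over probe sets. The proximal tubule markers were bright in every group, with the lowest of the 7 averaging 368 or more. Tissue identity in that respect followed the labels. Changes are differences in log2(signal + 16), with the standard error of a limma fit over all arrays and a p-value adjusted over all genes tested. Adding 16 makes the changes of dim genes smaller than those of their signals. Values given as times the control level are these changes on a linear scale, and so refer to signal + 16. Statements on whether groups overlap describe the rats for that gene, and the share of all genes without overlap was not counted.

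At 3 mg/kg, iron genes moved mainly on day 8: Cp rose, Tfrc fell, and Slc40a1 fell slightly, so that 3 of the 5 passed, where 37.3% of all genes tested did. On day 3 only Slc11a2 of the 5 rose, against a background of 9.85%. On day 5 none of the 5 passed in limma, where 8.8% of all genes did. An unadjusted p was under 0.05 for 2 of them, and for 2712 of all 11683 genes. On day 26 none passed in limma either, where 0.753% of all genes did. Again 2 were under an unadjusted 0.05, as were 1857 of all 11683 genes. None of the 5 passed in limma at 1 mg/kg on any day. The shares of all genes that passed there on days 3, 5, 8 and 26 were 0.0942%, 0.0171%, 0.522% and 0.00856%. Unadjusted p-values were under 0.05 for 0, 0, 3 and 1 of the 5 on those days. They were under 0.05 for 704, 376, 1510 and 776 of all 11683 genes. With 5 genes, a share near or above the background says little about the set.

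Against 1 mg/kg on the same day, 3 mg/kg raised Cp on day 8, which was the only one of the 5 to pass there, and 23.1% of all genes did. On days 3, 5 and 26 none of the 5 passed in limma, while 3.12%, 3.97% and 0% of all genes did. Under an unadjusted p of 0.05 were 2, 0 and 0 of the 5, and 2178, 2204 and 1197 of all 11683 genes. The effect of 3 mg/kg was also compared between successive days. None of the 5 passed between days 3 and 5 in limma, where 1.52% of all genes did. None of them had an unadjusted p under 0.05 either, while 1873 of all 11683 genes did. Between days 5 and 8 the effect on Cp changed, where 16.3% of all genes passed. Between days 8 and 26 those on Cp and Tfrc changed, where 15% did.

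**Figure D1:**
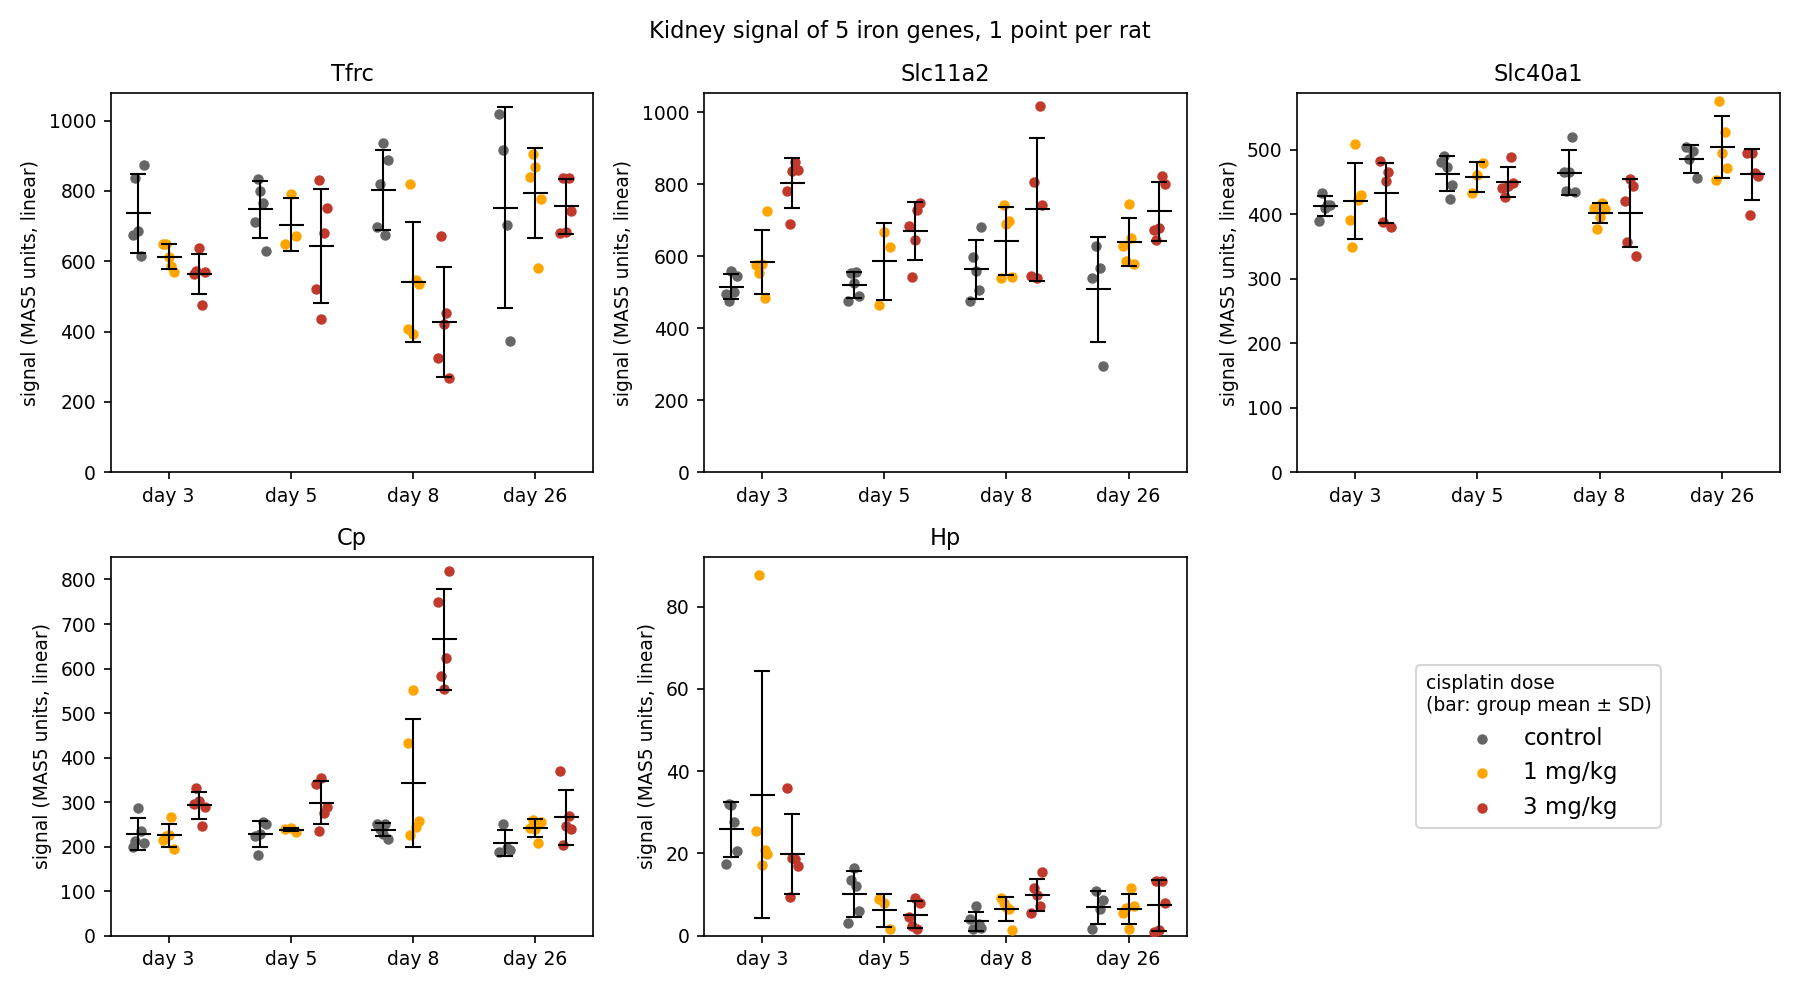
Signal of Tfrc, Slc11a2, Slc40a1, Cp and Hp (vertical axis, MAS5 units, linear, starting at 0) in each rat by day, with control, 1 mg/kg and 3 mg/kg side by side within a day; points are rats, and bars are the group mean ± SD. All 5 rats given 3 mg/kg sit above all 5 controls for Cp on day 8 (554 to 819 against 217 to 251) and below them for Tfrc on day 8 (267 to 672 against 675 to 936), and all are above controls for Slc11a2 on day 3.

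RefSeq's GRCr8 promoter windows, from 250 bases before to 50 after each start, held 6 windows for 5 of the 7 genes. Those of Cp and Tfrc, which had the largest changes of the 5 genes tested, are shown 5′ to 3′ on the gene's strand, with matches to the searched motifs in capitals. The Cp window is chr2:104368420-104368719 on the plus strand and the Tfrc window chr11:81690269-81690568 on the minus strand.
Cp: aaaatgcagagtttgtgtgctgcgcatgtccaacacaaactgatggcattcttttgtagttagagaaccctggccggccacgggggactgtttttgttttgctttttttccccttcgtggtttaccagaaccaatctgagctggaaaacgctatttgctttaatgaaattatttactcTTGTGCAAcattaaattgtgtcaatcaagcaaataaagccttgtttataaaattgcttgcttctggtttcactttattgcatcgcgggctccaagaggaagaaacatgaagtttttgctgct
Tfrc: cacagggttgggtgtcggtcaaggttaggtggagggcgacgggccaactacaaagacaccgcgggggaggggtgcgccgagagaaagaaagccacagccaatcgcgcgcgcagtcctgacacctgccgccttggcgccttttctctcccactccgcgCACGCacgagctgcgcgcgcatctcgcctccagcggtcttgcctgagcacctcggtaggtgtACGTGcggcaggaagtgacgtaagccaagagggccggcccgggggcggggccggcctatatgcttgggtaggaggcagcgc
The motifs searched, on both strands, were the hypoxia response cores ACGTG and GCGTG, the antioxidant response core TGACNNNGC, the STAT motif TTCNNNGAA and the C/EBP motif TTGCNNAA, and on the sense strand the iron responsive loop CAGTGN. Overlaps between matches were allowed. The Cp window held 1 C/EBP match, on the opposite strand and printed as TTGTGCAA, at position -72 from the start. The Tfrc window held ACGTG at -31 and, on the opposite strand, GCGTG (printed as CACGC) at -93. The first Slc11a2 window held GCGTG on the opposite strand at -165, and the Tf window 1 C/EBP match at -115. Among all 33469 windows of the table, 10.6% held the C/EBP motif, 19.3% ACGTG, 29.7% GCGTG, 12.1% the antioxidant core, 8.87% the STAT motif and 34.9% the iron responsive loop. The matches describe these letters only. Because the windows end 50 bases after the start, most of each transcript was not searched for the iron responsive loop. A window without the loop says nothing about the rest of the transcript.

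Tfrc, the receptor through which most cells take in transferrin-bound iron, fell on day 8. Its signals on day 8 were 324, 672, 422, 452 and 267 in the 5 rats given 3 mg/kg, against 697, 819, 936, 675 and 887 in the controls. Every rat given 3 mg/kg was below every control, though the highest came within a few units of the lowest control. The change was -0.94 ± 0.19 (adjusted p = 7.55e-05), or 0.52 times the control level, with a 95% interval of -1.32 to -0.56 on the log2 scale. The 1 mg/kg rats of day 8 gave Tfrc signals of 408, 820.4, 394, 548 and 535. They spread from the level of the 3 mg/kg group to that of the controls, with rat 2 as high as a control. The change at 1 mg/kg was -0.59 ± 0.19 (adjusted p = 0.14), and the difference between the doses, -0.35 ± 0.19 (adjusted p = 0.184), did not pass, with an interval of -0.72 to 0.03.

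The Tfrc group means at 3 mg/kg were 563 ± 57.2, 644 ± 163, 428 ± 156 and 756 ± 77.6 on days 3, 5, 8 and 26 (SD, n = 5). Those at 1 mg/kg were 613 ± 36.4, 704 ± 76.2, 541 ± 171 and 794 ± 128 (SD, n = 5, and 3 on day 5). The controls averaged 737 ± 112, 748 ± 80.7, 803 ± 115 and 753 ± 286 (SD, n = 5, and 4 on day 26). The lowest of the 12 means were thus those of 3 mg/kg and then 1 mg/kg on day 8, and these neighbours did not differ beyond their spread. The control mean of day 26 carries a wide spread because rat 4 of that group read 372, where the other 3 read 702 to 1019.6.

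On days 3 and 5 the changes in Tfrc at 3 mg/kg were -0.37 ± 0.19 (adjusted p = 0.201) and -0.24 ± 0.19 (adjusted p = 0.465). By day 26 it was 0.09 ± 0.20 (adjusted p = 0.858), and without control rat 4 it was -0.20 (adjusted p = 0.695). The rise of the effect between days 8 and 26, 1.03 ± 0.27 (adjusted p = 0.00595), passed, also without that rat (0.74, adjusted p = 0.0423), whereas the fall between days 5 and 8, -0.70 ± 0.26 (adjusted p = 0.0611), did not. The second Tfrc probe set changed by -0.79 ± 0.21 (adjusted p = 0.00261) on day 8 in a fit of every kept probe set, with the groups overlapping. In that fit 31.8% of 21829 probe sets passed. Both probe sets therefore fell at 3 mg/kg on day 8. For the second, the effect on day 26 minus that on day 8 was 0.74 ± 0.30 (adjusted p = 0.11) and did not pass. The called rise between these days rests on 1 probe set.

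Slc11a2, which carries ferrous iron and other divalent metals across the endosomal and apical membranes, rose on day 3. Signals on day 3 were 783, 690.5, 838, 863 and 839 in the rats given 3 mg/kg, against 496, 475, 559.8, 502 and 545 in the controls. The lowest rat given 3 mg/kg was well above the highest control. The change was 0.62 ± 0.14 (adjusted p = 0.00251), 1.54 times the control level. The 1 mg/kg rats of day 3 read 577, 555, 578, 483 and 726, overlapping both of the other groups, and the change was 0.16 ± 0.14 (adjusted p = 0.975). The difference between the doses on day 3, 0.46 ± 0.14 (adjusted p = 0.0534), fell just short of the threshold.

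At 3 mg/kg Slc11a2 averaged 803 ± 69.3, 669.8 ± 81.3, 730.2 ± 199 and 725 ± 82.01 on days 3, 5, 8 and 26 (SD, n = 5). Controls averaged 515 ± 35.4, 520.0 ± 36.96, 564 ± 81.3 and 508 ± 146 on those days (SD, n = 5, and 4 on day 26). The means at 1 mg/kg, 584 ± 88.3, 586 ± 107, 643 ± 95.1 and 639 ± 66.6, lay between those of the other groups on every day. The order of the 12 means ran from the 3 mg/kg rats of day 3 down to the controls of day 26, and the 3 mg/kg groups of days 8 and 26, which follow the first, did not differ from each other beyond their spread.

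After day 3 none of the Slc11a2 changes at 3 mg/kg passed. They were 0.35 ± 0.14 (adjusted p = 0.108) on day 5, 0.33 ± 0.14 (adjusted p = 0.0518) on day 8 and 0.55 ± 0.15 (adjusted p = 0.06) on day 26. The day 8 change lay close to the threshold: over other processing settings its adjusted p ran from 0.0154 to 0.16, and without control rat 5, 3 mg/kg rat 1 or 3 mg/kg rat 3 it passed (adjusted p = 0.0268, 0.0159 and 0.0136). The effect did not differ detectably between days: day 5 minus day 3 was -0.27 ± 0.20 (adjusted p = 0.523), and day 26 minus day 8 was 0.21 ± 0.20 (adjusted p = 0.541). On day 26 all 5 rats given 3 mg/kg, at 646 to 824, were above all 4 controls, at 296 to 629. Without control rat 4, at 296, the change on day 26 was 0.31 (adjusted p = 0.304). The other Slc11a2 probe set was dim, at 34.9 to 51.3 over all arrays, and changed by 0.14 ± 0.06 (adjusted p = 0.157) on day 3, so the rise of day 3 rests on 1 probe set. In that fit 10.9% of probe sets passed on day 3.

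Other measures stood apart in the same rats of day 3. The signal ratio of the actin control probe sets nearest to and farthest from the transcript's end, a sign of RNA quality, was 5.74 to 6.02 at 3 mg/kg, against 4.48 to 5.08 in controls. With this ratio as a term of the limma fit the rise of Slc11a2 was 0.64 (adjusted p = 0.0138). Because the ratio did not overlap between these groups, the fit cannot separate it from the dose on day 3. Of the 4 erythroid markers measured, out of 6 listed, 3 fell (Hbb by 1.47, Hba-a3 by 1.27 and Alas2 by 0.92 on the log2 scale), where 9.85% of all genes tested passed. The 4 signals summed to 720 to 1419 at 3 mg/kg, against 2081 to 3321 in controls, and none was at 0. Red cell precursors are rich in transferrin receptor and metal transporter, and the part of these markers in the Tfrc and Slc11a2 values of day 3 was not tested.

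Fth1 encodes the ferritin heavy chain, which oxidises iron as it enters the ferritin shell. Its only probe set is also assigned to the pseudogene Fth1-ps5, so the transcripts cannot be told apart. It gave 4973, 5097, 4664, 4928 and 4596 in the rats given 3 mg/kg on day 8, against 3703, 4250.3, 4391, 4457 and 4545 in the controls. All 5 treated rats were above all 5 controls, by a small margin. The change was 0.19 ± 0.06 (adjusted p = 0.0163), and on day 3 it was 0.20 ± 0.06 (adjusted p = 0.0259) with the groups overlapping, both past the threshold among the 21829 probe sets. On day 5 it was 0.06 ± 0.06 (adjusted p = 0.591), where 6.68% of probe sets passed, and on day 26 0.19 ± 0.07 (adjusted p = 0.109), where 1.46% did. The 1 mg/kg change of day 8 was 0.06 ± 0.06 (adjusted p = 0.735), where 0.389% of probe sets passed. Over all 57 arrays this probe set stayed between 3703 and 6389, so the called changes were about 1.14 to 1.15 times the control level.

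Tf, the plasma iron carrier, is read by a probe set that is also assigned to Srprb, which encodes a subunit of the receptor for the signal recognition particle. Which of the genes gave its signal cannot be told apart. On day 8 it gave 157, 228, 99.4, 200.5 and 137 in the rats given 3 mg/kg, against 81.7, 64.5, 74.7, 48.1 and 60.3 in the controls. The treated rats were all above the controls, with rat 3 the nearest. The change was 1.10 ± 0.21 (adjusted p = 4.59e-05), 2.15 times the control level. Signals in 1 mg/kg rats of day 8 were 108, 74.9, 140.4, 87.95 and 57.5, overlapping the controls, with a change of 0.39 ± 0.21 (adjusted p = 0.446). The difference between the doses on day 8, 0.72 ± 0.21 (adjusted p = 0.0114), passed although these groups overlapped. On day 5 the change at 3 mg/kg was 0.49 ± 0.21 (adjusted p = 0.161), and on day 26 it was 0.21 ± 0.22 (adjusted p = 0.677). The effect on day 26 minus that on day 8, -0.90 ± 0.31 (adjusted p = 0.0457), passed. On day 3 the changes were 0.14 ± 0.21 at 3 mg/kg (adjusted p = 0.726) and 0.37 ± 0.21 at 1 mg/kg (adjusted p = 0.992). The 1 mg/kg mean of day 3, 162 ± 74.0, was close to the highest, 164 ± 51.1 at 3 mg/kg on day 8 (SD, n = 5 each). A second probe set of the same genes stayed at 0.192 to 6.71 and did not pass the filter on dim probe sets.

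**Figure D2:**
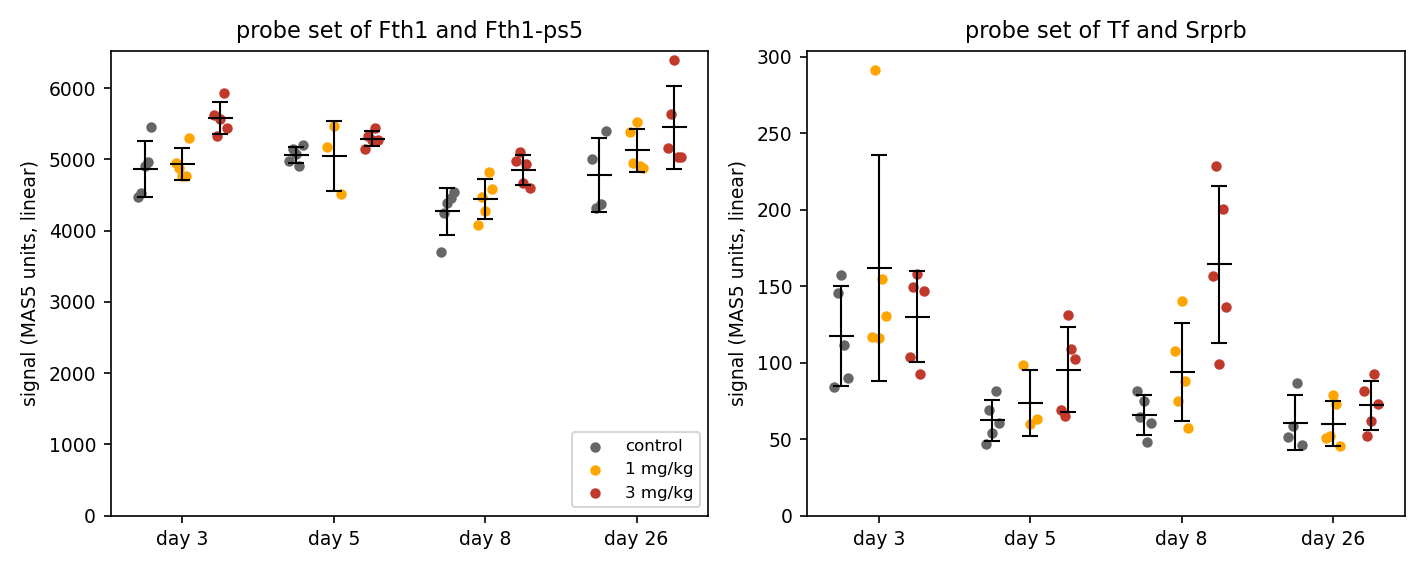
Signal (vertical axis, MAS5 units, linear, starting at 0) of the probe set assigned to Fth1 and Fth1-ps5, left, and of the one assigned to Tf and Srprb, right, in each rat by day, with control, 1 mg/kg and 3 mg/kg side by side; bars are the group mean ± SD. On day 8 the 3 mg/kg rats lie above all controls in both panels, at 4596 to 5097 against 3703 to 4545 and at 99.4 to 228 against 48.1 to 81.7.

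Slc40a1, which encodes ferroportin, fell slightly on day 8 at 3 mg/kg. Its signals were 421, 357, 455, 443 and 335 in the rats given 3 mg/kg, against 466, 436, 466, 520.4 and 435 in the controls. The groups overlapped, with 3 treated rats below all controls. The change was -0.21 ± 0.08 (adjusted p = 0.0252), and the call was lost without 3 mg/kg rat 2 (-0.17, adjusted p = 0.0866), without 3 mg/kg rat 5 (-0.15, adjusted p = 0.134) or without control rat 4 (-0.17, adjusted p = 0.0945). Those given 1 mg/kg read 410.4, 377, 396, 417 and 409, all below the controls, with a change of -0.20 ± 0.08 (adjusted p = 0.234). The difference between the doses was -0.01 ± 0.08, with an interval of -0.16 to 0.14.

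The other Slc40a1 probe sets changed by -0.06 ± 0.08 (adjusted p = 0.591) and -0.31 ± 0.16 (adjusted p = 0.146) at 3 mg/kg on day 8, so the probe sets of this gene did not give the same call. Across the 12 groups the means of the representative probe set ran only from 402 ± 15.7 in the 1 mg/kg rats of day 8 to 505 ± 48.4 in the 1 mg/kg rats of day 26. The next lowest mean, 402 ± 53.5, was that of 3 mg/kg on day 8, which did not differ from the lowest beyond its spread. On days 3, 5 and 26 the changes at 3 mg/kg were 0.06 ± 0.08, -0.04 ± 0.08 and -0.07 ± 0.08, none past the threshold.

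Cp, the ferroxidase that accompanies iron export and whose promoter window with its C/EBP match is printed above, rose more than any other of the 5 genes tested. Signals on day 8 were 749.6, 583, 554, 624 and 819 in the rats given 3 mg/kg, against 251, 240.3, 229, 251 and 217 in the controls. Even the lowest treated rat was far above the highest control. The change was 1.41 ± 0.15 (adjusted p = 1.09e-10), 2.66 times the control level, with an interval of 1.12 to 1.71 on the log2 scale. Rats given 1 mg/kg read 434, 225, 551, 244 and 257. Rats 1 and 3 stood well above every control, rat 5 was just above the highest, and rats 2 and 4 lay within the control range. The change at 1 mg/kg was 0.41 ± 0.15 (adjusted p = 0.209), and 3 mg/kg exceeded 1 mg/kg by 1.00 ± 0.15 (adjusted p = 9.34e-07) with no overlap.

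On day 3 Cp gave 295, 332, 301, 246 and 288 at 3 mg/kg, against 198, 213, 287, 235 and 208 in controls, and on day 5 341, 236, 353, 276 and 289.7, against 224, 182, 228, 255 and 250.2. The groups overlapped on both days, and the changes were 0.34 ± 0.15 (adjusted p = 0.129) and 0.36 ± 0.15 (adjusted p = 0.114). On day 26 the rats given 3 mg/kg averaged 265 ± 62.8 and the controls 208 ± 29.5 (SD, n = 5 and 4), a change of 0.31 ± 0.16 (adjusted p = 0.314). The effect grew by 1.05 ± 0.21 (adjusted p = 0.000388) between days 5 and 8 and fell by 1.10 ± 0.21 (adjusted p = 0.00025) between days 8 and 26. Cp averaged at 1 mg/kg 225 ± 26.3, 238 ± 4.23, 342 ± 144 and 241 ± 20.2 on days 3, 5, 8 and 26, and at 3 mg/kg on day 8 666 ± 113, against 238 ± 14.7 in controls. The order of the 12 group means was led by 3 mg/kg and then 1 mg/kg on day 8. The spread of the 1 mg/kg group of day 8 covers the next mean, 3 mg/kg on day 5.

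The 3 Cp probe sets moved together on day 8 but by different amounts, a comparison chosen after their values were seen. The values above are those of the representative probe set, the one with the highest mean, and the second rose by 1.21 ± 0.16 (adjusted p = 5.14e-08). The third gave 560.4, 601, 398, 475 and 731 at 3 mg/kg on day 8, against 80.6, 58.9, 56.1, 65.5 and 68.1 in controls, a rise of 2.78 ± 0.24 (adjusted p = 9.64e-13) or 6.85 times. It had already risen on day 5, with 257, 106, 214, 130.0 and 118, against 42.8, 35.1, 57.03, 64.8 and 62.8 in controls, a change of 1.35 ± 0.24 (adjusted p = 0.000163) and no overlap. In the 1 mg/kg rats of day 8 it gave 263, 74.8, 311, 104 and 91.3, and its rise of 0.98 ± 0.24 (adjusted p = 0.0423) passed although rats 2, 4 and 5 were near or within the control range.

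Within each array, the log2 difference of the third minus the representative Cp probe set was set against the controls. At 3 mg/kg it averaged -0.86 ± 0.32 on day 5, against -1.85 ± 0.14 in controls, and -0.27 ± 0.21 on day 8, against -1.64 ± 0.16 (SD, n = 5 each). At 1 mg/kg on day 8 it averaged -1.07 ± 0.32, against the same controls. In these 3 comparisons every treated rat was above every control, with differences of 0.98, 1.36 and 0.57 (two-sided exact permutation test, p = 0.00794, the smallest that 5 against 5 allows, adjusted p = 0.0212 over 8 tests). The pair of probe sets was chosen after its changes were seen, which these p-values do not allow for. They are therefore no independent support for an unequal change. In the other 5 comparisons the groups overlapped. The files do not say which Cp transcripts each probe set reads.

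**Figure D3:**
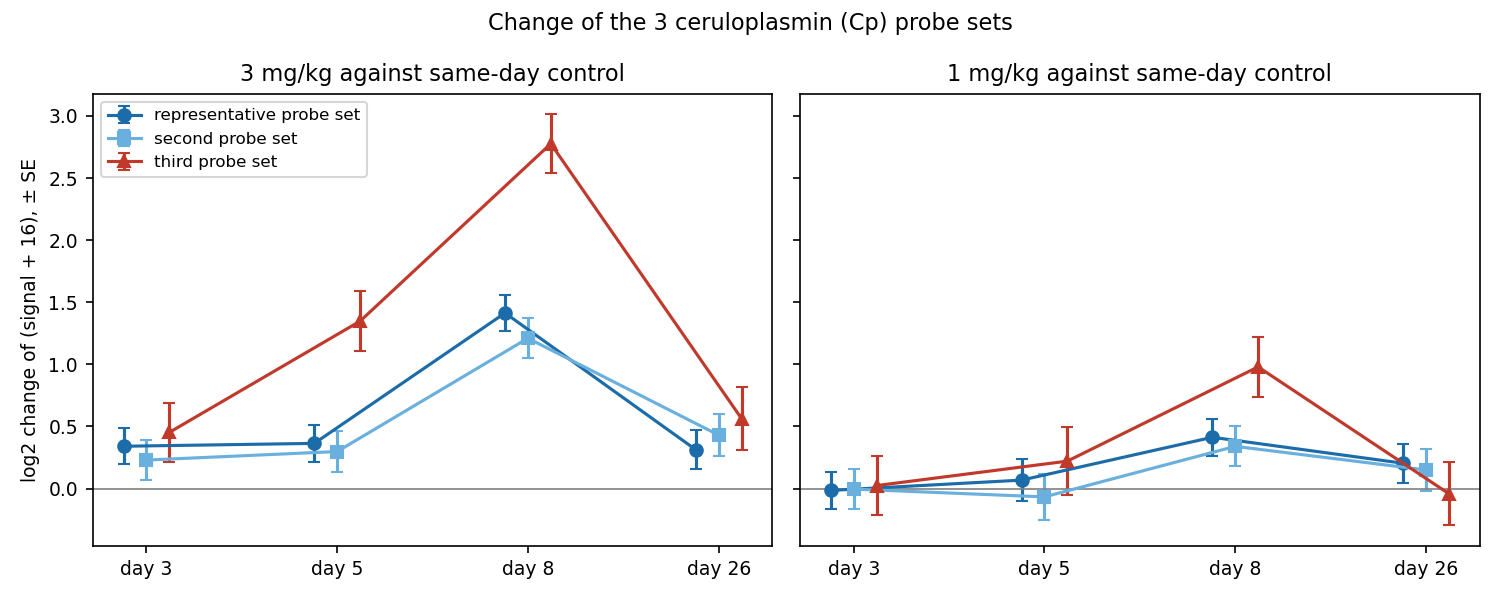
Change of the 3 Cp probe sets against same-day controls (vertical axis, log2 of signal + 16, error bars ± SE of the fit) by day, for 3 mg/kg, left, and 1 mg/kg, right. The third probe set lies above the others on days 5 and 8 at 3 mg/kg, with 2.78 on day 8 against 1.41 and 1.21, and on day 8 at 1 mg/kg.

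Havcr1, the gene of the tubular injury protein KIM-1, gave 2177, 829, 679.7, 1581 and 1639.5 at 3 mg/kg on day 8, against 4.95, 7.33, 10.2, 5.47 and 1.73 in controls, and 912, 32.4, 1085, 32.9 and 17.6 at 1 mg/kg. Rats 1 and 3 of the 1 mg/kg group were far above the other 3. The same rats had the highest Cp of their group, 434 and 551, and the lowest Tfrc, 408 and 394. In the 3 mg/kg group, rats 1 and 5 had the highest Cp and the lowest Tfrc by the representative probe sets. Rat 2 kept the highest Tfrc, 672, with a Cp of 583. On the third Cp probe set rat 2 read 601, above rat 1 at 560.4 and below rat 5 at 731, so the order of Cp depends on the probe set. Over all 57 arrays the log2 signals of Cp and Tfrc correlated at -0.68, a description of arrays that share the same dose groups.

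**Figure D4:**
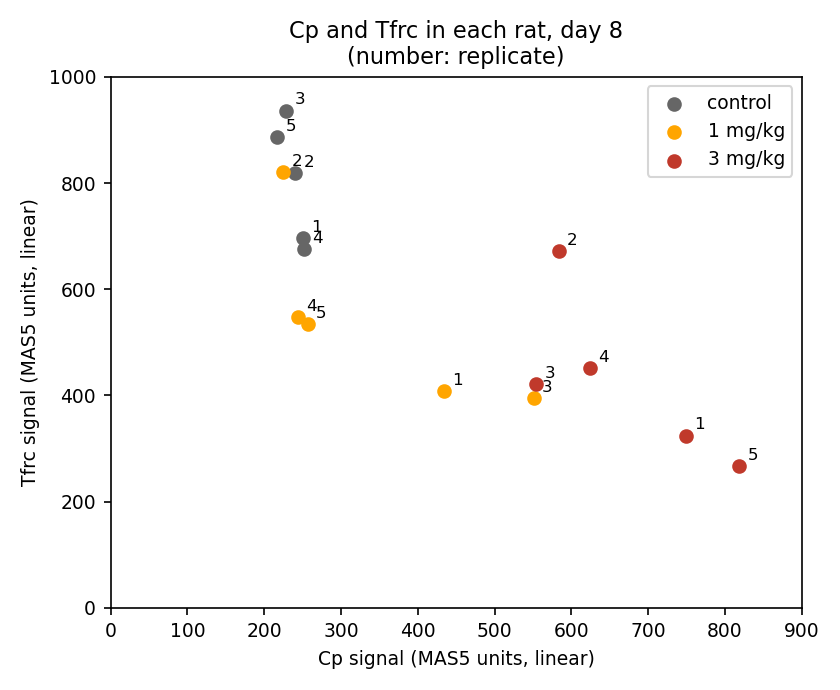
Cp signal (horizontal axis) against Tfrc signal (vertical axis), both in MAS5 units on linear scales from 0, for each rat of day 8; colours mark control, 1 mg/kg and 3 mg/kg, and numbers are replicates. The 3 mg/kg rats lie at high Cp and low Tfrc (554 to 819 and 267 to 672), the controls at low Cp and high Tfrc (217 to 251 and 675 to 936), and 1 mg/kg rats 1 and 3 lie apart from the other 3 of their group.

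The cell markers moved at 3 mg/kg on day 8 as well, where 37.3% of all genes tested passed in either direction. All 4 markers of the thick ascending limb fell at 3 mg/kg, and their signals summed to 84.5 to 3467, against 6556 to 8172 in controls. Umod, which encodes uromodulin of that segment, gave 785, 2.68, 921, 21.6 and 5.37, against 2676, 3177, 2502, 2393 and 2606 in controls, and the rat with the lowest Umod, rat 2, had the highest Tfrc of its group. Of 4 collecting duct markers 3 fell (sums of 650.4 to 2430.4, against 2199 to 2579). Of the 4 macrophage markers measured, out of 7 listed, 3 rose (sums of 224 to 356, against 168 to 214). Only 2 of the 6 listed neutrophil markers were measured, S100a8 and S100a9, and both rose (sums of 20.9 to 284.6, against 12.3 to 44.1). Of 7 proximal tubule markers Aqp1 rose and Slc5a2 and Slc5a12 fell, with sums of 12711 to 15012, against 12181 to 14155. None of the measured markers was at 0, and their part in the Cp, Tfrc and Slc40a1 results was not tested. In whole tissue, fewer cells of a type and less RNA per cell cannot be told apart. With the actin ratio as a term of the fit, Cp rose by 1.41 and Tfrc fell by 0.94 on the log2 scale at 3 mg/kg on day 8, as without it. The ratio was 4.59 to 5.87 at 3 mg/kg on day 8 and 4.73 to 5.90 in controls. It spread most of all groups in the 1 mg/kg rats of day 8, at 4.52 to 8.58.

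Hp, the haemoglobin scavenger made mainly by the liver, was dim here: only 17 of the 57 arrays had it over their 40th percentile, and its signal ran from 0.888 to 87.8. On day 8 it gave 5.59, 11.6, 9.97, 7.24 and 15.6 at 3 mg/kg, against 3.94, 1.61, 7.26, 2.82 and 1.77 in controls. Of the 5 treated rats 3 were above all controls, but the groups overlapped, and the change of 0.41 ± 0.20 (adjusted p = 0.102) did not pass. The changes on days 3, 5 and 26 were -0.24 ± 0.20 (adjusted p = 0.462), -0.30 ± 0.20 (adjusted p = 0.389) and 0.00 ± 0.21 (adjusted p = 0.996). At 1 mg/kg they were 0.13 ± 0.20, -0.23 ± 0.23, 0.20 ± 0.20 and -0.03 ± 0.21 on days 3, 5, 8 and 26, none past the threshold. The highest group means were all of day 3: 19.9 ± 9.72 at 3 mg/kg, 34.2 ± 30.1 at 1 mg/kg and 25.8 ± 6.64 in controls, which did not differ beyond their spread.

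The hepatocyte markers were also high on day 3. The 7 measured ones summed to 791 to 961 at 3 mg/kg on day 3 and 715 to 2437 at 1 mg/kg, against 789 to 1049 in controls. The albumin gene Alb gave 83.99 to 275 at 3 mg/kg on day 3, against 148 to 421 in controls, a change of -1.03 ± 0.31 (adjusted p = 0.0285). On day 8 Alb was near 0 in all groups, at 0.283 to 4.24 at 3 mg/kg, against 1.64 to 3.55 in controls. Of the 7 markers, F2 and Apoc3 rose on day 8 at 3 mg/kg, by 0.96 ± 0.17 and 0.38 ± 0.12, where 37.3% of all genes tested passed. The 7 markers summed there to 556 to 1085, against 500.5 to 618 in controls. Their part in the Hp and shared Tf values was not tested.

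Lists of related genes were counted on day 8 at 3 mg/kg, where 37.3% of all genes tested passed. In iron transport and reduction outside the 7 genes, 5 of 12 rose and 3 fell, with a median change of 0.18, against 0.04 over all genes. The largest rise was that of Lcn2, which encodes the siderophore-binding protein lipocalin, at 595, 219, 257, 425 and 442 in rats given 3 mg/kg, against 24.7, 22.5, 28.1, 19.7 and 27.8 in controls (3.23 ± 0.34 (adjusted p = 1.5e-10)). The metalloreductase genes Steap1 and Steap4 rose by 0.79 ± 0.13 and 0.55 ± 0.15, both with no overlap between the groups, a trait not counted over all genes. Slc39a8, a zinc transporter that can carry iron, fell by 0.37 ± 0.11. On day 5 Lcn2 (1.63 ± 0.34 (adjusted p = 0.00114)) and Slc39a14 (0.46 ± 0.12 (adjusted p = 0.00753)), another transporter of this family, rose and none fell, where 8.8% of all genes passed. On day 3 Slc39a8 alone passed (-0.36 ± 0.11 (adjusted p = 0.0218)), where 9.85% of all genes did.

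Of 12 genes of haem and haemoglobin handling, 2 rose and 1 fell on day 8, a share below the 37.3% of all genes. Hmox1, the haem oxygenase that frees iron from haem, gave 93.3, 57.99, 69.03, 153 and 55.8 at 3 mg/kg, against 35.8, 28.3, 29.9, 40.7 and 42.8 in controls, all treated rats being above the controls (0.92 ± 0.17 (adjusted p = 2.12e-05)). The haem-binding protein gene Hpx rose by 0.50 ± 0.17 at low signal, and Blvra, which encodes a biliverdin reductase, fell by 0.57 ± 0.13 with no overlap. Hmox1 had also risen on day 3 (0.57 ± 0.17 (adjusted p = 0.0218)) and day 5 (0.54 ± 0.17 (adjusted p = 0.0332)), with the groups overlapping, and Fech, the enzyme that inserts iron into haem, fell on day 3 (-0.25 ± 0.06 (adjusted p = 0.00909)).

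Of the 5 hepcidin regulation genes, 2 rose and 1 fell on day 8, against 37.3% of all genes called. Id1, a target of bone morphogenetic protein signalling, rose by 1.08 ± 0.20 and Smad7, an inhibitor of that pathway, fell by 0.38 ± 0.11. Smad7 also fell on day 3 (-0.34 ± 0.11 (adjusted p = 0.0457)). Hamp, the hepcidin gene itself, was dim, at 4.45 to 17.1 at 3 mg/kg, against 0.805 to 11.8 in controls, and rose by 0.31 ± 0.11 with the groups overlapping. Of 8 genes of ferritin and iron sensing, Ncoa4, the receptor for ferritin breakdown, rose by 0.24 ± 0.09 and Pcbp2, an iron chaperone, by 0.17 ± 0.05, and none fell. On day 3 Pcbp1, another chaperone of this family, fell (-0.22 ± 0.06 (adjusted p = 0.0194)), with no rise in that list. Of 6 mitochondrial iron genes 1 rose on day 8, the importer gene Slc25a37, by 0.36 ± 0.10. The shares called in these lists of ferritin, iron sensing and mitochondrial genes were below that over all genes.

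The acute phase plasma proteins, a class to which Cp and Hp belong, rose in 4 of 7 cases on day 8 and fell in none, where 37.3% of all genes passed in either direction. Their median change was 1.03, against 0.04 over all genes. The fibrinogen chain genes Fga, Fgb and Fgg rose by 2.81 ± 0.28, 2.78 ± 0.26 and 1.86 ± 0.19, and A2m, a protease inhibitor, by 1.03 ± 0.16. Fga and Fgb had risen on day 5, by 1.84 ± 0.28 and 0.92 ± 0.26. No gene of these 6 lists passed in limma at 1 mg/kg on any day, or at 3 mg/kg on day 26. Few of all genes tested passed there: 0.0942%, 0.0171%, 0.522% and 0.00856% at 1 mg/kg on days 3, 5, 8 and 26. At 3 mg/kg on day 26 the share was 0.753%, so the lack of calls says little about these lists. On day 8 at 1 mg/kg, rats 1 and 3, those of high Cp, gave 123 and 142 for Fga, against 27.5 to 38.0 in controls.

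**Figure D5:**
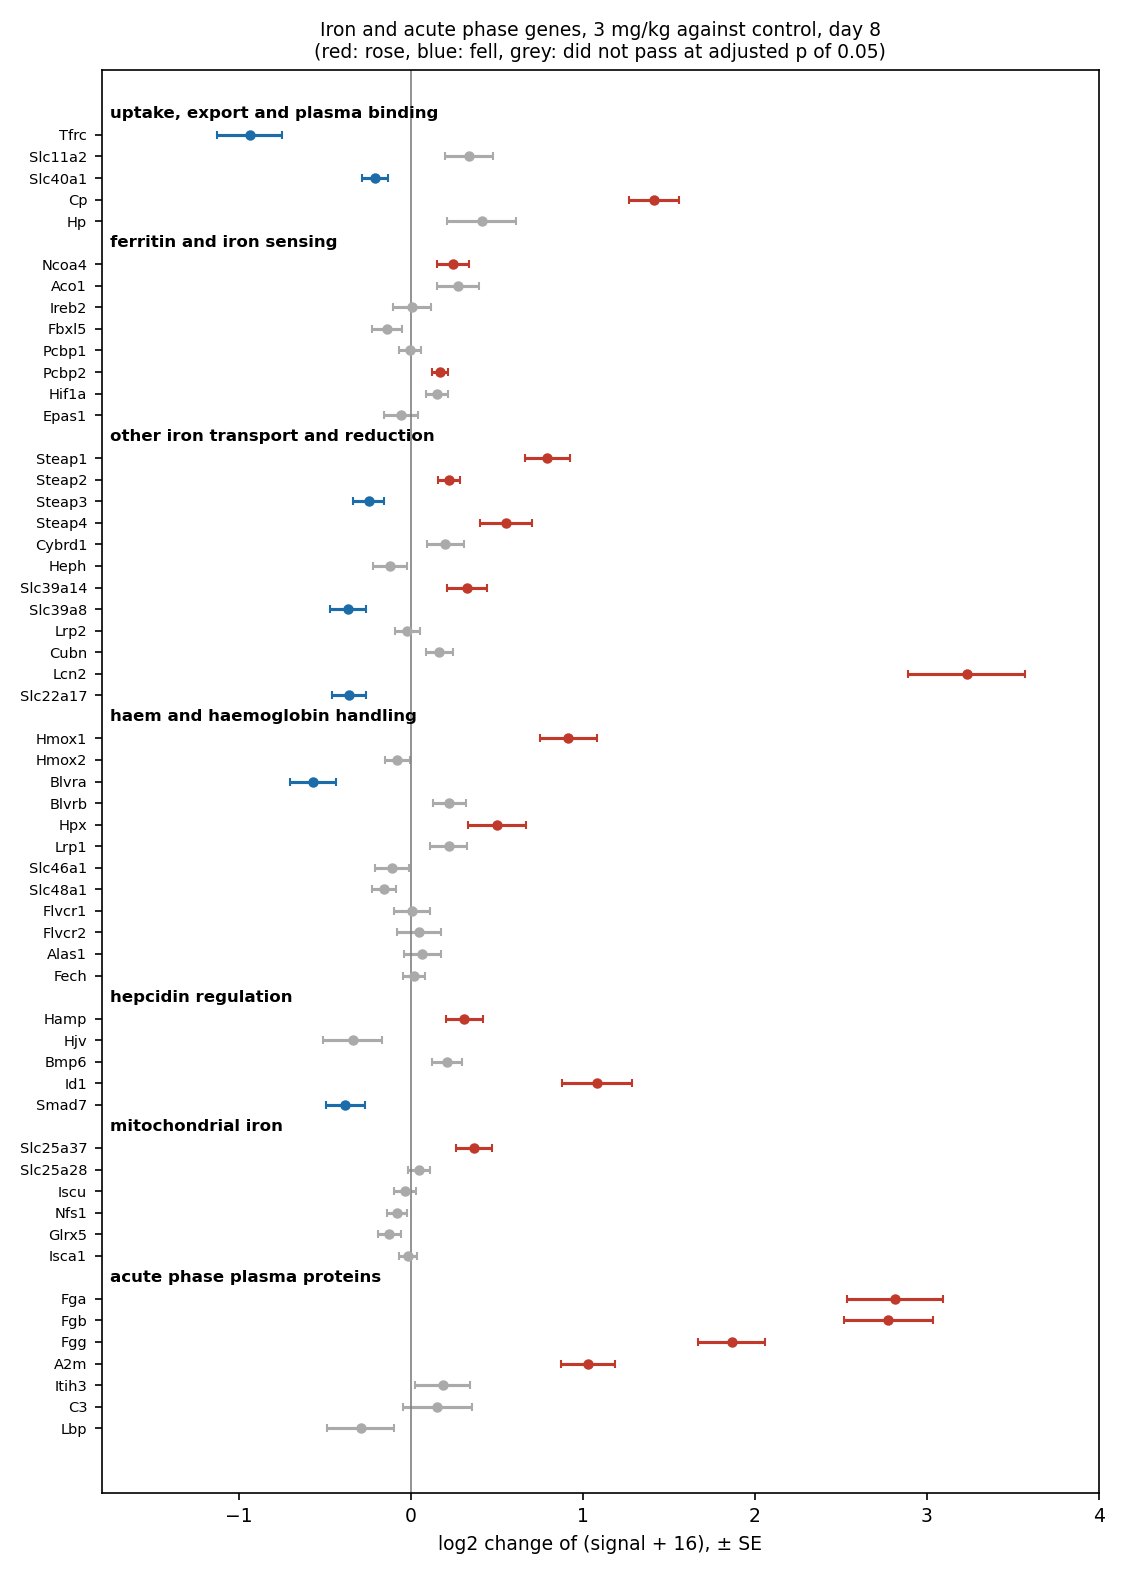
Change at 3 mg/kg against control on day 8 (horizontal axis, log2 of signal + 16, error bars ± SE of the fit) of the 5 iron genes tested and of the members of 6 lists of related genes. Red points rose, blue points fell and grey points did not pass at an adjusted p of 0.05; Lcn2 (3.23) and the fibrinogen genes lie farthest to the right, and Tfrc (-0.94) farthest to the left.

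For each of the 5 genes the 3 genes with the highest Pearson correlation of log2 signal over the 57 arrays were taken, as a description of arrays that share dose and day. Cp was most like Clu (0.92), which encodes clusterin, Slc25a24 (0.92), a mitochondrial carrier gene, and Lcn2 (0.91). Tfrc was most like Kynu (0.73), Slc43a2 (0.69) and Xpr1 (0.68). Slc11a2 was most like Spata7 (0.71), LOC100912041 (0.68) and Per3 (0.67), and Slc40a1 was most like Pakap (0.62), Dusp15 (0.61) and Bnc2 (0.60). Hp was most like Serpina1 (0.86) and Ttr (0.86), plasma protein genes of the liver, and Rup2 (0.86). Hp was dim, over the 40th percentile on only 17 of the 57 arrays. Its highest signal, 87.8, was that of 1 mg/kg rat 2 of day 3, and the part of this rat in the correlations was not tested.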

How the data were processed

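Affymetrix Rat 230 2.0 arrays of 57 rats were analysed. The authors deposited linear intensity values, 1 for each probe set of an array. Per the submitters' processing notes, MAS5 was used, in a version not given in the sources used here. Gene names came from the platform annotation, updated with the GRCr8 RefSeq table, and the 436 probe sets with more than 1 symbol named none. Groups, days and replicate numbers came from the labels.

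A probe set was kept where it exceeded its array's 40th percentile on at least 3 arrays, which left 21829, and each gene was represented by the one with the highest mean log2 signal (11683 genes). limma 3.58.1 in R 4.3.3 fitted log2(signal + 16) with a mean per group over all arrays and moderated variances with an intensity trend. Tests were two-sided, with Benjamini-Hochberg adjustment over all genes of a comparison and a threshold of 0.05. The shared standard errors assume a like spread in all groups. The fit was tested on simulated data. Exact permutation tests used scipy 1.17.1.

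The members and lists were chosen with earlier results of these data known. All 7 members are named whatever their result, with up to 4 passing genes per list and comparison of the largest change and the 3 most alike genes per member. Genes listed but not tested were Ftl1, Tfr2, Cd163, Hfe, Tmprss6, Orm1, Itih4, Serpina3n, Saa4 and Crp, and some others are not reported here. Alternatives covered offset, scaling, filter, probe set choice, variance model, groups in the fit, array weights, replicate block, each left-out rat and, added after seeing the data, the actin ratio. The number of arrays limits the precision.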

Additional observations from a re-analysis of the deposited data

Results flagged for a closer look

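Among 77 groups checked for a value far from the others, 2 had one, and chance flags about 1 in 20. Cp in control rat 2 of day 26 read 252, above the other 3, at 189 to 198. Hp in 1 mg/kg rat 2 of day 3 read 87.8, above the other 4, at 17.2 to 25.4, and in the same rat Alb read 1555, Serpina1 88.6 and Ttr 164, each the highest of its group.

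Among the 5 genes tested, the effects of 3 mg/kg that differed between days by the test of the difference itself were those on Cp and Tfrc. The effect on Cp was larger on day 8 than on day 5 by 1.05 on the log2 scale (limma adjusted p = 0.000388), and on day 26 it was lower than on day 8, a difference of -1.10 (adjusted p = 0.00025). The effect on Tfrc was higher on day 26 than on day 8 by 1.03 (adjusted p = 0.00595). The control rats of day 26 that enter the last difference spanned 372 to 1019.6 in Tfrc, and without the lowest it was 0.74 (adjusted p = 0.0423). For the second Tfrc probe set it was 0.74 ± 0.30 (adjusted p = 0.11 in the limma fit of every kept probe set), which did not pass. In that fit the shared Tf probe set passed, with -0.90 ± 0.31 for day 26 minus day 8 (adjusted p = 0.0457).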

How the results depend on the processing

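For single members, 1857 of 1900 values over all comparisons and alternatives kept their side of the threshold, 7 lost a call and 36 gained one. The sign turned in 71, 0 of which passed in limma or reversed a called change. The rise of Cp and fall of Tfrc on day 8 and the rise of Slc11a2 on day 3 at 3 mg/kg passed under every alternative run, left-out rats included, with changes of 1.26 to 1.80, -1.12 to -0.80 and 0.38 to 0.67 and adjusted p-values up to 1.44e-05, 0.00686 and 0.0138. The fall of Slc40a1 lost its call under quantile normalization, array weights and a fit of only the compared groups. The Hp change of day 8 passed without the added 16 (1.66) and with only the compared groups in the fit (0.41). Slc11a2 passed on day 8 at 3 mg/kg with an offset of 64, quantile normalization, a filter at the 60th percentile or the mean of its probe sets. The members called in that comparison were thus 2 to 4 over settings and 2 to 4 over left-out rats, around the 3 reported. In other comparisons the number of members that passed moved as follows, and the cause was not tested. With only the compared groups in the fit it was, at 3 mg/kg, 3 for day 3 and 1 for day 5, 2 for 3 against 1 mg/kg on day 3, 2 for day 8 minus day 5 and 1 for day 26 minus day 8, where Tfrc was lost. Averaging the probe sets of each gene gave 1 on day 5. With every kept probe set it was 1 on day 26 at 3 mg/kg. For 3 against 1 mg/kg on day 3 it was 1 with an offset of 64, quantile normalization, a filter at the 60th percentile, every kept probe set or array weights. Array weights gave 2 for 3 against 1 mg/kg on day 8 and 2 for day 8 minus day 5, where no offset also gave 2. Leaving out each rat in turn gave 0 to 1 members at 3 mg/kg on day 26 (1 without 3 mg/kg rat 2 or control rat 2), 0 to 1 at 1 mg/kg on day 8 (Tfrc without rat 2, -0.75), 0 to 1 and 1 to 2 for 3 against 1 mg/kg on days 3 and 8, and 1 to 2 for day 8 minus day 5. Within a day, the deviations of same-numbered rats correlated at a mean of 0.017 (lowest -0.17), against -0.0044 for rats of other numbers. Of 57 arrays 20 were nearest to their own number. No chance level was set for that count, so whether the numbers pair animals was not tested. With the replicate number as a block, day 8 minus day 5 had 2 members, Tfrc added. Dim probe sets, Hp above all, limit what a change can show.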

Other observations

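Ttr and Serpina1, plasma protein genes of the liver, were brighter on day 3 than on day 8 in every dose group. On day 3 Ttr read 18.3 to 43.6 at 3 mg/kg, 20.9 to 164 at 1 mg/kg and 26.4 to 56.9 in controls, and on day 8 8.21 to 14.9, 7.45 to 15.2 and 4.75 to 9.16. Serpina1 read 11.6 to 24.2, 12.7 to 88.6 and 13.1 to 24.8 in the same groups of day 3, and 5.01 to 11.2, 4.92 to 8.99 and 3.13 to 3.86 on day 8. The shared Tf probe set was highest in 1 mg/kg rat 2 of day 3, at 292, the rat with the highest Hp. Control rat 4 of day 26 had both the lowest Slc11a2, 296, and a low Tfrc, 372, and its other Tfrc probe set read 41.4, against 109 to 158 in the other 3.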
